A study of Mus musculus with 4 samples.

Results

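The Ms4a genes examined here are Ms4a1, Ms4a2, Ms4a3, Ms4a4b, Ms4a4c, Ms4a6b, Ms4a6c, Ms4a6d and Ms4a7, which lie together on mouse chromosome 19. They were taken as the genes to which the RefSeq accession of an array probe maps, which gave 9 genes with 11 probes among 22899 genes with 32972 named probes. Their RNA was measured on 4 single-colour arrays, 1 for each of 4 cultures: macrophages and osteoclasts from wild-type mice, and the same 2 cell types from LysM-St18flox mice. Macrophages were bone marrow cells grown for 4 days with M-CSF (25 ng/ml), the growth factor that keeps macrophages alive. Osteoclasts resorb bone, and here they were such macrophages kept 3 days longer with M-CSF (25 ng/ml) and RANKL (50 ng/ml), the cytokine that drives their formation, so the effects of RANKL and of longer culture cannot be told apart. By its name, LysM-St18flox carries loxP-flanked St18, a zinc finger transcription factor gene, and a Cre recombinase driven by the lysozyme M gene, which is active in macrophages, their precursors and neutrophils. The sources used here do not give the strain, age or number of the mice, nor whether the wild-type animals carried Cre. With 1 array per group no difference could be tested against the spread between cultures, and a difference is called here when it is at least 2-fold.

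Ms4a proteins cross the membrane as tetraspans and sit beside immune receptors, whose surface level and signalling several of them alter. Each branch of the blood lineage has its own members: Ms4a1 (CD20) is carried by B cells, Ms4a2 is the beta chain of the high-affinity IgE receptor of mast cells and basophils, and Ms4a3 marks granulocyte and monocyte progenitors. Ms4a4b is best known from T cells, while Ms4a6b, Ms4a6c, Ms4a6d and Ms4a7 are found in monocytes and macrophages, with Ms4a7 used as a mark of macrophages settled in tissues.

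Between 58.9% and 63.2% of spots were well above background, which is the scanner software's own flag, and 0 spots were saturated. The median SD between repeated spots of a probe was 0.031 to 0.042 (log2), which is precision within an array only. All 8 macrophage markers examined were well above background on every array. All 10 osteoclast markers were at least 2-fold higher in osteoclasts of both genotypes, against 5.70% of all genes in wild-type and 10.9% in LysM-St18flox cells. Their median difference was 5.68 (log2) in wild-type and 6.94 in LysM-St18flox cells. The brighter probe of St18 read 0.29 and 1.55 in wild-type macrophages and osteoclasts, and -1.52 and 1.12 in those of LysM-St18flox mice (log2 level). The other probe of St18 cleared the background flag on 1 array, that of LysM-St18flox osteoclasts (-4.60). The sources used here do not say where either probe lies relative to the loxP sites, so these values cannot check the deletion. Lyz2, which encodes lysozyme M, read 6.38, 5.49, 6.31 and 4.44 in the same order.

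Of the 9 genes, 6 were well above background on all 4 arrays: Ms4a4b, Ms4a4c, Ms4a6b, Ms4a6c, Ms4a6d and Ms4a7. Ms4a1 was seen on all but the LysM-St18flox osteoclast array, Ms4a3 on both macrophage arrays only, and Ms4a2 on none. The number of members well above background was therefore 8 in macrophages of either genotype, and in osteoclasts it was 7 for wild-type and 6 for LysM-St18flox mice. Levels are given below as log2 of the processed signal relative to the 75th percentile of its array, so 0 is the signal of a probe at that percentile. A level belongs to 1 probe, and levels of different probes are not compared. For the 6 genes seen everywhere, the scanner's error estimate for a difference between 2 arrays was 0.20 to 0.25 (log2). It does not include the spread between cultures.

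**Figure D1:**
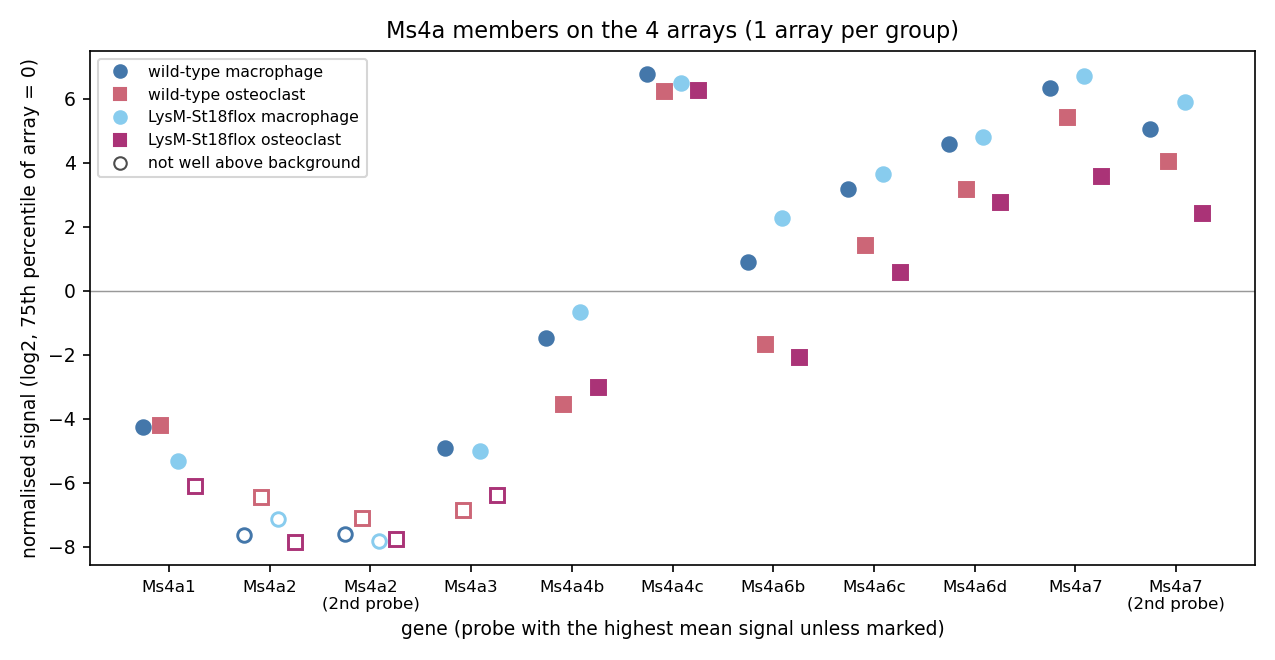
Log2 level of each of the 9 Ms4a genes (y axis, relative to the 75th percentile of the array) in the 4 cultures, 1 array each, with the second probes of Ms4a2 and Ms4a7. Filled points are well above background and open points are not; the brighter Ms4a7 probe is at 3.60 in LysM-St18flox osteoclasts and at 5.42 or above elsewhere, Ms4a4c stays between 6.25 and 6.77, and Ms4a2 is open on all 4 arrays.

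The 3 Ms4a6 genes were lower in osteoclasts than in macrophages of both genotypes. Ms4a6b and Ms4a6c are shown first through the 250 bases before their start sites, because both genes are lower in osteoclasts and share the longest identical run among the member windows. The windows come from RefSeq on build GRCm38.p6, both on the plus strand of chromosome 19, at chr19:11518309-11518558 for Ms4a6b and chr19:11469118-11469367 for Ms4a6c. Capitals mark the longest run of letters that both hold, 48 bases, which ends 71 bases before the start of Ms4a6b and 2 bases before that of Ms4a6c:
Ms4a6b: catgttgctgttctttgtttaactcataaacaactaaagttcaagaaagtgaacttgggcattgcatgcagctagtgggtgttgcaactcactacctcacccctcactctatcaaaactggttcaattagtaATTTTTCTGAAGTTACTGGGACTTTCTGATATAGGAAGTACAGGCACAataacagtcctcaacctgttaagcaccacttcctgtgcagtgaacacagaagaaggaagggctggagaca
Ms4a6c: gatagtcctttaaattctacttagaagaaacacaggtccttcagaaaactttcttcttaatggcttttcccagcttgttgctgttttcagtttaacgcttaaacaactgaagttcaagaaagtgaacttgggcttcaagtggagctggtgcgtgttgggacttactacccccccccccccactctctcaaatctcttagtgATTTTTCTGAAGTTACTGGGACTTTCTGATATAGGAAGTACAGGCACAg
Of 175 aligned bases the pair had 149 in common (85.1%, or 59.6% of the 250). Ms4a6d and Ms4a1 had no window in the RefSeq table, so their sequences were not compared.

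Ms4a6b read 0.89 in macrophages and -1.68 in osteoclasts of wild-type mice, and 2.26 in macrophages and -2.07 in osteoclasts of LysM-St18flox mice. Both macrophage arrays lay above both osteoclast arrays, and the LysM-St18flox macrophages were the highest of the 4. In wild-type cells the gene was 5.92-fold lower in osteoclasts (log2 difference -2.57), where 111 of 14731 measured genes had a difference as low or lower. In LysM-St18flox cells it was 20.2-fold lower (-4.33), the 40th lowest of 15572. In these bulk cultures, fewer cells that carry a transcript and less of it per cell cannot be told apart.

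For Ms4a6c the wild-type macrophages read 3.18 and their osteoclasts 1.43, and the LysM-St18flox macrophages read 3.65 and their osteoclasts 0.57. Its order over the 4 cultures was that of Ms4a6b, with a smaller span. It was 3.37-fold lower in osteoclasts of wild-type mice (-1.75) and 8.47-fold lower in those of LysM-St18flox mice (-3.08). Ms4a6d, a membrane protein of macrophages, read 4.58, 3.18, 4.82 and 2.78 in the same order of cultures, again with both macrophage arrays on top. Its osteoclasts were 2.65-fold lower in wild-type (-1.41) and 4.11-fold lower in LysM-St18flox cells (-2.04). The levels of Ms4a6d in the macrophages of the 2 genotypes differed by 0.23, close to the scanner's error of 0.20.

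Ms4a7 was lower in LysM-St18flox osteoclasts than in any other culture. RefSeq gives 2 start sites on the minus strand, with windows at chr19:11336147-11336396 and chr19:11334696-11334945 (GRCm38.p6). They are shown because this gene parts from its neighbours below, and because theirs were the only member windows with a match to any motif searched. Capitals mark an NFAT core (TGGAAA, here read on the opposite strand) in the first and an AP-1 site (TGANTCA) in the second:
Ms4a7 first window: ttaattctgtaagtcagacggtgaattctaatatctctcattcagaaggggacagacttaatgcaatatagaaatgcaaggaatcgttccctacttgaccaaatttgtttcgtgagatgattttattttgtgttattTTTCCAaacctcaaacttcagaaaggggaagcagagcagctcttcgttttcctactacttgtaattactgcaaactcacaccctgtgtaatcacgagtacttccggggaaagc
Ms4a7 second window: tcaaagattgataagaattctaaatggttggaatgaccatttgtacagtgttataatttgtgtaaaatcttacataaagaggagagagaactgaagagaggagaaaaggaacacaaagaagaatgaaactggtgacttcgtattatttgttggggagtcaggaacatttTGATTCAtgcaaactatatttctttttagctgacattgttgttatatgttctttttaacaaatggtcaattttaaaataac
NFAT and AP-1 factors act downstream of RANKL, as background. The NFAT core was held by 18.6% and the AP-1 site by 6.75% of 32851 windows of 250 bases in the RefSeq table, and a match describes the sequence only. The other motifs searched on both strands were an interferon response element (in 2.98% of all windows), a PU.1 site (GAGGAAGT, 2.44%) and a site of Maf factors (TGCTGAC, 3.81%), and these had 0 matches in the 8 windows of the 7 members in the table. No motif overlapped another where it matched.

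The brighter Ms4a7 probe read 6.35 in macrophages and 5.42 in osteoclasts of wild-type mice, and 6.72 in macrophages and 3.60 in osteoclasts of LysM-St18flox mice. LysM-St18flox osteoclasts stood apart below the other 3 cultures. In wild-type cells the gene was 1.89-fold lower in osteoclasts (-0.92), short of 2-fold, and in LysM-St18flox cells it was 8.67-fold lower (-3.12). A second probe, designed to another RefSeq transcript of Ms4a7, read 5.07, 4.06, 5.90 and 2.43 in the same order. It gave 2.01-fold (-1.01) and 11.1-fold (-3.47), so the probes fall on either side of the 2-fold line in wild-type cells.

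Ms4a4b and Ms4a4c, whose genes neighbour each other apart from a pseudogene, moved unequally. Their windows, on the plus strand at chr19:11443308-11443557 and chr19:11407411-11407660 (GRCm38.p6), are shown because alike sequence before the start here goes with unlike values. Capitals mark the longest shared run, 20 bases, which ends 22 bases before the start of Ms4a4b and 19 bases before that of Ms4a4c:
Ms4a4b: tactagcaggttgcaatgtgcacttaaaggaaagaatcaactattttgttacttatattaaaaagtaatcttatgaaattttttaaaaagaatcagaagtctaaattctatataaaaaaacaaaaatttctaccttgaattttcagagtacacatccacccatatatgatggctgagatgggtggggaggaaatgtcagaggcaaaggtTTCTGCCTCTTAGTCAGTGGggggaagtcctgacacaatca
Ms4a4c: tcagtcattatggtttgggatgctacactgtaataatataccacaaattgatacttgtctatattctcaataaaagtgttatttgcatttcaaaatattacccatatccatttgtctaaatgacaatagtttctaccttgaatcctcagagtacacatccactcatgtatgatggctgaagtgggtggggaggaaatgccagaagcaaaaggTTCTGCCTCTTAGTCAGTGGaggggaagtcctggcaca
They had 183 of 232 aligned bases in common (78.9%, or 73.2% of the 250). The 25 other pairs of windows from different members, apart from Ms4a6b with Ms4a6c, were 49.5% to 67.5% identical over their aligned bases. Their shared runs had at most 12 bases.

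Ms4a4b read -1.49 in macrophages and -3.55 in osteoclasts of wild-type mice, and -0.68 in macrophages and -3.02 in osteoclasts of LysM-St18flox mice. Both macrophage arrays were above both osteoclast arrays. Osteoclasts were 4.17-fold lower in wild-type (-2.06) and 5.07-fold lower in LysM-St18flox cells (-2.34); with background re-estimated by the normexp method the wild-type difference was -1.25. Markers of T and NK cells, where Ms4a4b is best known, were well above background for 6 of 10 genes on each array, with Cd3g, Cd8a, Ncr1 and Klrb1c on none. The 6 had a median difference of -0.36 in wild-type and -0.26 in LysM-St18flox cells, and the part of such cells in the Ms4a4b signal was not tested. Ms4a4c read 6.77, 6.25, 6.48 and 6.26 in the same order of cultures, which are all within 2-fold of each other. Its osteoclasts were 1.43-fold lower in wild-type (-0.52) and 1.16-fold lower in LysM-St18flox cells (-0.22).

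Counted together, 4 of the 7 members measured in wild-type cells were at least 2-fold lower in osteoclasts (Ms4a6b, Ms4a4b, Ms4a6c and Ms4a6d) and 0 were higher. Among all 14731 measured genes 7.32% were lower and 5.70% higher by that fold. The members' median difference was -1.41, against 0.00 over all genes. In LysM-St18flox cells 5 of 8 members were at least 2-fold lower, now with Ms4a7, and 0 higher, where 12.2% of 15572 genes were lower and 10.9% higher (1905 and 1702 genes, or 1522 and 2206 with arrays centred on their median). The median was -2.19, against -0.02 over all genes.

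**Figure D2:**
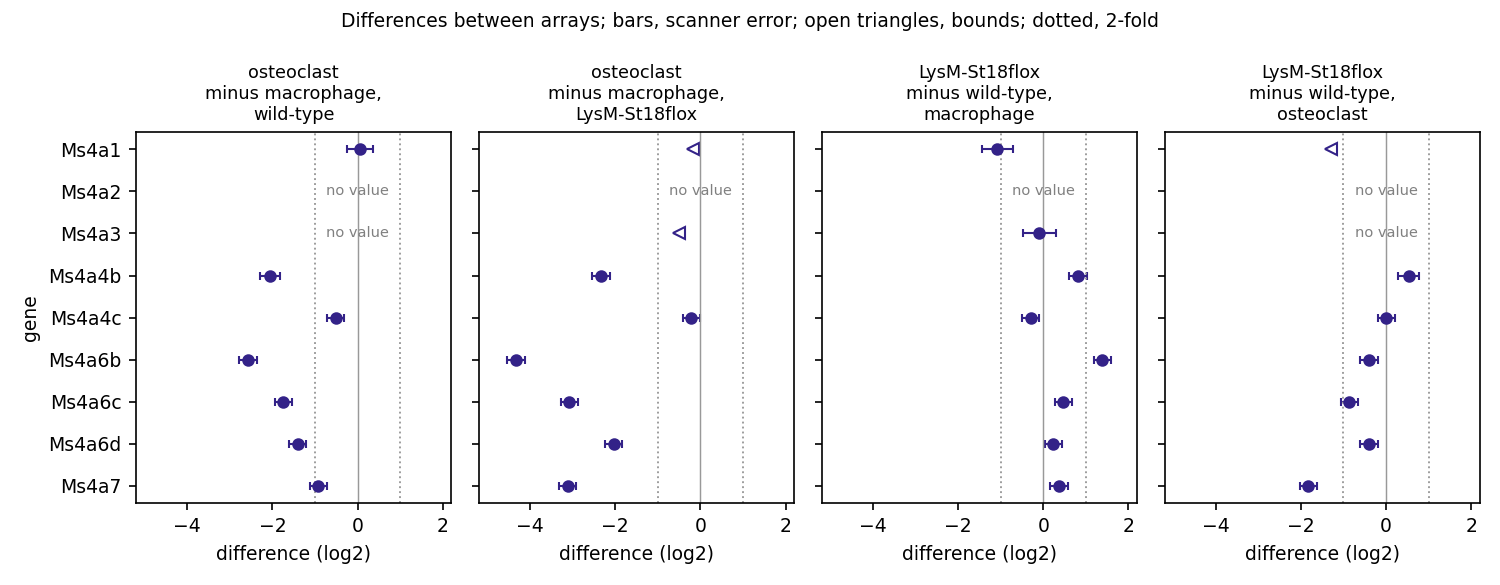
Log2 difference (x axis) of each member (y axis) in the 4 comparisons, each between 2 arrays; bars give the scanner's own error of the difference, and open triangles are bounds where 1 array was not well above background. In LysM-St18flox cells Ms4a6b (-4.33), Ms4a7 (-3.12) and Ms4a6c (-3.08) are lowest in osteoclasts, and Ms4a4c lies within 0.52 of 0 in every comparison.

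The members of other blood lineages were dim. Ms4a1, the B cell protein CD20, read -4.25 in macrophages and -4.20 in osteoclasts of wild-type mice, and -5.33 in macrophages of LysM-St18flox mice. Its reading in LysM-St18flox osteoclasts, -6.11, was not well above background. The wild-type cell types differed by 0.05 with a scanner error of 0.31. LysM-St18flox macrophages were 2.12-fold lower than wild-type macrophages (-1.08, scanner error 0.36), and LysM-St18flox osteoclasts at least 2.47-fold lower than wild-type osteoclasts. With normexp background correction these differences were -0.93 and -0.80, short of 2-fold, so neither call holds under it. The bound sets the brighter array against the lowest signal called well above background on the dimmer one. Of 9 further B cell markers, 4 were well above background on every array (Cd79b, Cd22, Pax5 and Cr2) while Cd79a, Ebf1, Blk and Fcmr were on none. By genotype the median of the 4 was -0.20 in macrophages and -0.54 in osteoclasts, and 0 passed 2-fold in either cell type. In LysM-St18flox macrophages Cd79b was higher (0.54), while Cd22 (-0.22), Pax5 (-0.75) and Cr2 (-0.18) were lower. The part of these markers in the Ms4a1 values was not tested.

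Ms4a3, of granulocyte and monocyte progenitors, read -4.91 in wild-type and -5.00 in LysM-St18flox macrophages, a genotype difference of -0.09 with a scanner error of 0.39. It was not well above background in osteoclasts, at -6.84 and -6.40. In LysM-St18flox cells this allows only that osteoclasts were at least 1.42-fold lower, and in wild-type cells no fold, because the macrophage level was under the lowest one called in osteoclasts. Elane, the neutrophil elastase gene that such progenitors transcribe, was well above background in all 4 cultures, at 2.19, 1.44, 2.46 and 1.51. Of the 8 progenitor markers, 5 were seen on each wild-type array and 7 on each LysM-St18flox array. Those added were dim, Prtn3 (-5.38 in macrophages, -5.30 in osteoclasts) and Flt3 (-5.22 and -4.34). The lowest level called well above background was -5.32 and -4.89 on the wild-type arrays, and -5.56 and -5.50 on the LysM-St18flox arrays. Of all spots, 61.4% and 58.9% were well above background on the wild-type arrays, and 63.2% and 61.7% on the LysM-St18flox arrays.

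Ms4a2 was not well above background with either of its 2 probes on any array, and its difference was not measured in any comparison. The IgE-binding chain of the same receptor, Fcer1a, was well above background in wild-type macrophages only (-4.97). Fcer1g, the signalling chain that macrophages also use for antibody receptors, read 7.69, 6.62, 7.76 and 6.73, with osteoclast minus macrophage differences of -1.07 in wild-type and -1.03 in LysM-St18flox cells. Lat, the adaptor downstream of the receptor, went the other way, with log2 differences of 3.22 and 4.62. Of the 7 genes of the receptor and its kinases, 6 were measured between cell types, without Fcer1a. In osteoclasts of wild-type mice 1 was higher and 1 lower, against 5.70% and 7.32% of all genes. In those of LysM-St18flox mice 1 was higher and 2 lower, against 10.9% and 12.2%. Of 9 mast cell and basophil markers, 4 were well above background in wild-type macrophages, 2 each in wild-type osteoclasts and LysM-St18flox macrophages, and 4 in osteoclasts of LysM-St18flox mice, with Cpa3, Mcpt8 and Mcpt4 on no array.

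Between genotypes, 1 member changed by 2-fold upwards in macrophages and 1 of the 6 seen on all arrays, Ms4a7, downwards in osteoclasts. In macrophages, Ms4a6b was 2.60-fold higher in LysM-St18flox cells (1.38), where 219 of 15158 genes had a difference as high or higher, and Ms4a1 was lower as given above. These were 1 higher and 1 lower of 8 measured members, against 3.30% and 2.98% of all genes. Ms4a4b was 1.75-fold higher (0.81), Ms4a6c 1.38-fold (0.47) and Ms4a7 1.29-fold (0.37; second probe 1.77-fold, 0.83), all short of the line. Ms4a4c was 1.22-fold lower (-0.29).

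In osteoclasts, Ms4a7 was 3.54-fold lower in LysM-St18flox cells (-1.82), and its second probe 3.11-fold lower (-1.64). Of 14611 measured genes, 59 had a difference as low or lower. With the bound for Ms4a1 this made 2 of 7 measured members lower and 0 higher, against 3.94% and 3.81% of all genes (576 and 556 genes, or 314 and 1000 with arrays centred on their median). The direction of that bound was fixed, since only the wild-type array saw Ms4a1. With genes well above background on both arrays, 1 of 6 members was lower, against 428 of 13974 genes. Ms4a6c was 1.82-fold lower (-0.86), Ms4a6d 1.32-fold (-0.40) and Ms4a6b 1.31-fold lower (-0.39). With arrays centred on their median, Ms4a6d was at -0.15 and Ms4a6b at -0.14, both inside the scanner's error. Ms4a4b was 1.44-fold higher (0.53). Ms4a4c stood at 0.01, and its sign depended on the scaling between arrays, from -0.05 to 0.26. The median of the members was 0.30 in macrophages and -0.40 in osteoclasts, against -0.02 and 0.00 over all genes. The 4 comparisons share arrays in pairs, so their values are not independent of each other.

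The step from macrophage to osteoclast was set side by side between genotypes as a difference of differences, LysM-St18flox minus wild-type. It was -2.19 for Ms4a7 (4.58-fold; second probe -2.46), -1.77 for Ms4a6b (3.41-fold), -1.33 for Ms4a6c (2.52-fold), -0.63 for Ms4a6d (1.55-fold), -0.28 for Ms4a4b and 0.30 for Ms4a4c. Of the 6 members seen on all arrays, 5 were below 0 and 3 past 2-fold, where 4.70% of 13668 genes were lower and 3.20% higher by that fold and 45.8% were below 0. The median of the 6 was -0.98, against 0.04 over all these genes. For the 4 lowest members the genotype difference was above 0 in macrophages and below 0 in osteoclasts. Osteoclast markers differed by genotype too: in the LysM-St18flox osteoclasts 8 of 10 were at least 2-fold higher than in wild-type osteoclasts, against 3.81% of all genes. Their median was 1.20, and Ctsk (0.29) and Acp5 (-0.29) were short of 2-fold. The part of these markers in the Ms4a values was not tested.

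**Figure D3:**
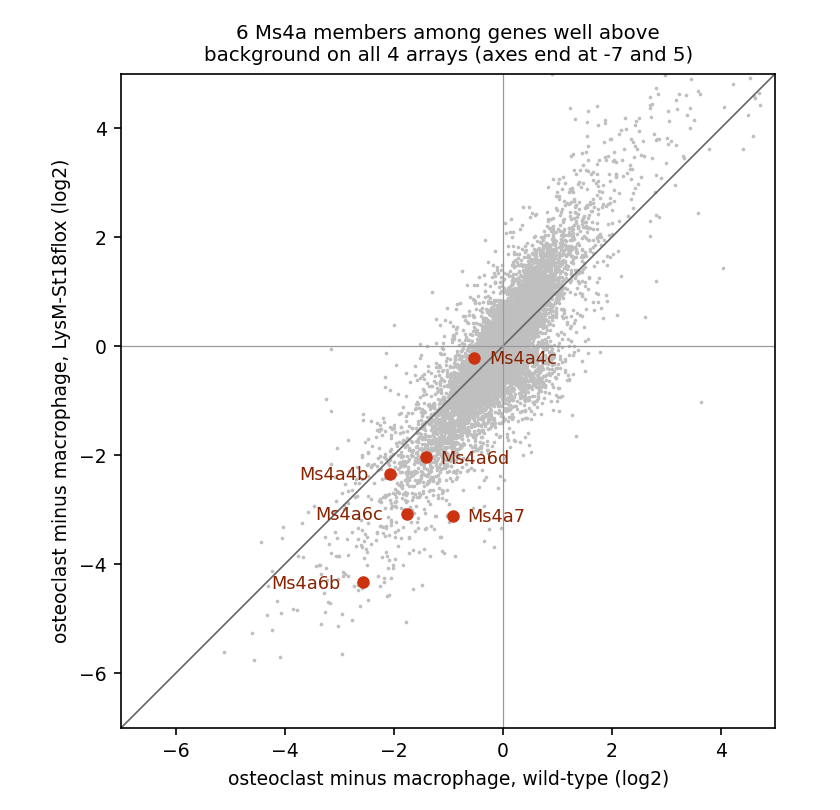
Osteoclast minus macrophage log2 difference in wild-type cells (x axis) against the same in LysM-St18flox cells (y axis), for genes well above background on all 4 arrays (grey) with the 6 Ms4a members in red; the diagonal marks equal differences. Ms4a7 lies furthest below the diagonal of the 6 (-0.92 against -3.12), and Ms4a4c lies above it.

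Genes that belong with Ms4a7 in tissue macrophages were lower in osteoclasts as well. This list (complement C1q chains, Mrc1, Cd163, Stab1, Maf, Apoe and others) had 16 genes, of which 15 were measured. All 15 were at least 2-fold lower in osteoclasts of both genotypes, against 7.32% of all genes in wild-type and 12.2% in LysM-St18flox cells. Their median differences were -3.02 and -4.27. The wild-type difference of Ms4a7 (-0.92) was smaller than that of each of the 15. Between genotypes the list had a median of 0.66 in macrophages. There 3 of 15 were higher (F13a1 3.25, Cbr2 1.98 and Mrc1 1.41), against 3.30% of all genes. In osteoclasts the median was -0.39, with F13a1 higher (2.57) and 3 lower, against 3.81% and 3.94% of all genes. Among the 3 lower were Stab1 (-1.06), a scavenger receptor, and Selenop (-1.02), a selenium transport protein. None of the 14 measured between osteoclasts was as low as Ms4a7 (-1.82).

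Receptors and adaptors of macrophages reported beside Ms4a proteins were mostly short of 2-fold in wild-type cells. Of 7 measured, 1 was lower in wild-type osteoclasts, Trem2 (-1.07), the lipid-sensing receptor, against 7.32% of all genes. In LysM-St18flox osteoclasts 4 were lower, Tlr2 (-1.63), Tlr4 (-1.43), Trem2 (-1.42) and Cd14 (-1.13), against 12.2% of all genes. By genotype 0 of 7 passed 2-fold in either cell type. Type I interferon response genes were lower in osteoclasts too. In wild-type cells 14 of 17 were at least 2-fold lower (median -2.00), against 7.32% of all genes. In LysM-St18flox cells 15 of 17 were (median -1.66), against 12.2% of all genes. By genotype 3 of 17 were at least 2-fold higher in LysM-St18flox macrophages (median 0.70), against 3.30% of all genes, and 7 of 17 in the osteoclasts (0.81), against 3.81%. Among the 7 were Rsad2 (1.81) and Ifi44 (1.74), both antiviral effectors, while Oas1a had values of -0.26 and -0.33. In osteoclasts their median thus lay above 0 where that of the Ms4a genes lay below.

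**Figure D4:**
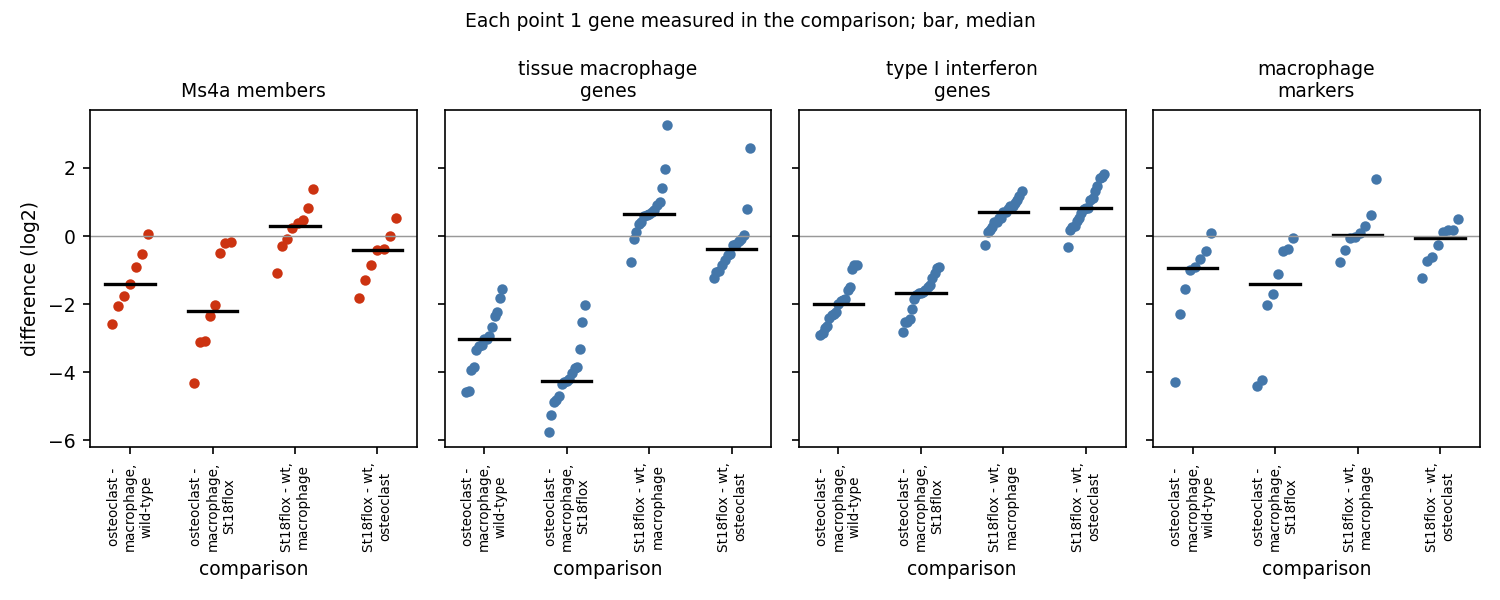
Log2 difference of every measured gene (points) of the Ms4a members, the tissue macrophage genes, the interferon genes and the macrophage markers (y axis) in the 4 comparisons (x axis; bounds included), with the list median as a bar. The tissue macrophage genes lie lowest in osteoclasts of both genotypes (medians -3.02 and -4.27), and the median of the interferon genes lies above 0 between genotypes in both cell types (0.70 and 0.81).

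On chromosome 19 the RefSeq table on GRCm38.p6 puts 19 genes from Ms4a1 to Ms4a3, in the order Ms4a1, Ms4a5, Ms4a14, Ms4a7, Ms4a4a, Ms4a4c, Ms4a4b, Ms4a6c, Gm8369, Ms4a6b, Ms4a4d, Ms4a6d, Ms4a2 and Ms4a3 with pseudogenes and a long non-coding RNA left out here. Of these 19 genes, 12 had a named probe and 10 were seen above background somewhere. Of the 5 genes on either side, 6 of the 10 had a named probe and 0 were well above background. Within the stretch the members called lower in LysM-St18flox osteoclasts did not form a single block. Ms4a4c (-0.22) lies between Ms4a7 (-3.12) and Ms4a4b (-2.34). In wild-type cells the brighter Ms4a7 probe (-0.92) and Ms4a4c (-0.52) were both short of 2-fold. The 4 members called in wild-type cells, from Ms4a4b (-2.06) to Ms4a6d (-1.41), had no other member between them. Gm8369, which lies between Ms4a6c and Ms4a6b, was well above background in macrophages only, which puts its osteoclast difference at -0.81 or lower in wild-type and -1.87 or lower in LysM-St18flox cells. Among 9 further genes named Ms4a with a probe, Ms4a18 was well above background on all 4 arrays, at -3.40, -3.34, -3.15 and -3.61, Ms4a5 in LysM-St18flox macrophages only (-4.52), and the other 7 on none.

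The genes whose levels over the 4 arrays ran closest to each member were found by the root mean square difference after removal of each gene's mean, among 13667 genes. With only 4 arrays many genes run alike, and this is a description. Ms4a6b ran closest to P2ry12 (0.05), a purine receptor known from microglia, then Ly86 (0.11) and Wfdc18 (0.12). Ms4a6c ran closest to Adap2 (0.09), Apoe (0.10), the lipid carrier, and Il21r (0.13), and Ms4a6d to Oas1c (0.02), Kctd12 (0.05) and Ctsc (0.06), the lysosomal protease cathepsin C. Ms4a4b ran closest to Tlr1 (0.10), a receptor for bacterial lipopeptides, Maml2 (0.11) and Fcgrt (0.13). For Ms4a7 the closest genes were further off, Aox1 (0.21), Hmga2-ps1 (0.26) and Nlrp1c-ps (0.27). The osteoclast genotype difference of Aox1 was -1.25, against -1.82 for Ms4a7. Ms4a4c spanned less than 2-fold over the arrays and was not matched.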

How the data were processed

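Total RNA of the 4 cultures was extracted with TRIzol, and 100 ng was labelled with Cy3, per the labels' protocols. Per the submitters' processing notes, the images were read with Agilent Feature Extraction (version 11.0.1.1). The scanner files hold a processed intensity with its error for each spot, per the file headers, and other columns deposited there are flags, 0 or 1, for background, saturation and uneven spots. A second table from the authors gives log2 values of 30909 probes, not centred on 0 (median 9.39). Its columns differ by at most 0.0007 once sorted, so they are quantile-normalized, and the sources used here do not name the steps behind them.

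Control, uneven and outlying spots (80 to 126 per array) were left out and spots of a probe averaged. Log2 of the processed intensity minus the 75th percentile of the array (signals of 635.5 to 1159.3) was the level, the probe with the highest mean signal stood for its gene, and probes were named through their RefSeq accession (58.3% of 56575 probes). A gene was measured in a comparison if either array had it well above background. Where only 1 array saw it, the value is a bound against the lowest level called on the other. The number of arrays limits the precision.

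The members, gene lists and motifs were chosen with earlier results of these data known. All members are named, with the 3 genes nearest in pattern to each and, of the lists, the genes with the largest differences and the markers that define a member's lineage. Alternatives for scaling were normexp background correction (limma 3.58.1, offset 50), centring on the median, quantile normalization and the authors' values. A further one took the 75th percentile over probes well above background on all arrays only. The remaining alternatives were the filter on dim probes and the median over probes. Normexp was planned on mean spot intensities and run on the median intensities in the deposited files. Scripts in Python 3.11.15 were tested on simulated data. No replicate or batch comparison was possible. Some listed marker genes are not reported here by name.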

Additional observations from a re-analysis of the deposited data

Results flagged for a closer look

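For 4 members the genotype difference had opposite signs in the cell types, above 0 in macrophages and below 0 in osteoclasts, on the single arrays available. Members were flagged where both differences exceeded the scanner's error. With arrays centred on their median, the osteoclast differences of Ms4a6b (-0.14) and Ms4a6d (-0.15) lay inside that error (0.21 and 0.20). The osteoclast value minus the macrophage value was -2.19 for Ms4a7, -1.77 for Ms4a6b, -1.33 for Ms4a6c and -0.63 for Ms4a6d (log2). The difference was not tested, because each group had 1 array.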

How the results depend on the processing

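No paired analysis was possible because each group had 1 array and 1 replicate number. Over 36 single differences of the members and 8 alternatives, 277 values were computed: 273 lay within 1.5-fold of the value given, 4 moved further and 0 reversed a called direction. Of the 16 differences of at least 2-fold, 123 of 125 alternative values stayed past that fold in the same direction. Alternatives that gave no value for a member are not counted. These counts do not measure stability, because part of them was fixed in advance. For the 6 members well above background on all arrays, changing the filter on dim probes could not move a value. The median over probes could move only Ms4a7, and the authors' values are themselves quantile-normalized. Ms4a4b in wild-type osteoclasts against macrophages was -1.25 with normexp; without the filter on dim probes Ms4a1 and Ms4a3 in LysM-St18flox osteoclasts against macrophages were -0.78 and -1.40, and Ms4a1 between osteoclasts of the genotypes -1.91. Members lower in LysM-St18flox macrophages numbered 0 with normexp (Ms4a1 at -0.93) and with the authors' values, in place of 1. Members lower in LysM-St18flox osteoclasts numbered 1 with normexp (Ms4a1 at -0.80), with the authors' values and with genes well above background on both arrays, in place of 2; the authors' table holds 6 of the members. Without the filter 1 member, Ms4a2, was higher in wild-type osteoclasts, from signals below background on both arrays. The cause was not tested.

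Over all genes, 952 genes passed 2-fold between macrophages of the genotypes, 557 with normexp and 2092 without the filter; between osteoclasts these were 1132, 536 and 2330, and 695 with the authors' values. Between wild-type cell types 1918 genes passed, and 2985 without the filter. Centring arrays on the median moved the median of all genes from 0.00 to 0.24 between osteoclasts and from -0.02 to 0.15 between LysM-St18flox cell types. The share higher among genes past 2-fold went from 49.1% to 76.1% between osteoclasts with that centring. It was 62.2% with quantile normalization and with the authors' values, 59.1% with normexp and 52.8% with genes well above background on both arrays. It fell to 46.5% with the median over probes and 39.8% without the filter. With the 75th percentile over probes well above background on all arrays it was 41.5%. Between LysM-St18flox cell types it went from 47.2% to 59.2% with centring. Dim signals limit Ms4a1, Ms4a2 and Ms4a3.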

Other observations

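Because Ms4a4c was bright and nearly level on all 4 arrays, the other members were also set against it within each array. This removes a shift common to all probes of an array, but not scaling that varies with brightness. Ms4a4c was chosen after its values were seen, and a ratio within an array shows unequal change only. Relative to Ms4a4c, the osteoclast minus macrophage difference in wild-type and LysM-St18flox cells was -2.05 and -4.12 for Ms4a6b, -1.23 and -2.86 for Ms4a6c, -0.89 and -1.82 for Ms4a6d, -1.54 and -2.13 for Ms4a4b, and -0.40 and -2.90 for Ms4a7. The difference between osteoclasts of the genotypes was -1.84 for Ms4a7, -0.88 for Ms4a6c, -0.41 for Ms4a6d and Ms4a6b, and 0.51 for Ms4a4b.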
